A study of Mus musculus with 6 samples.

Results

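The genes that make, store, retrieve and degrade catecholamines were compared between 2 murine pheochromocytoma (PHEO) cell lines. There were 10 of them, of 19937 genes measured: Gch1, Th, Ddc, Dbh, Pnmt, Slc18a1, Slc18a2, Cyb561, Slc6a2 and Maoa. They were chosen by name for their place in the pathway, and each gene's value comes from its probe set, a group of probes that read 1 gene, where the platform's annotation gives that probe set exactly 1 symbol. All 10 genes had 1 such probe set.

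MPC cells stem from Nf1 knock-out mice. MTT cells are a subline of MPC, taken from liver metastases. Each line was measured in 3 samples, on 1 Affymetrix Mouse Gene 1.0 ST array each, without any treatment. No source used here gives the strain, sex or age of the mice, and none states whether the 3 samples of each line were cultured separately (the methods call the MTT samples separate and do not describe the MPC samples). All p-values therefore refer to the spread among these samples, and this spread may be technical. Both lines go back to the Nf1 knock-out. All 6 samples carry 1 and the same label for the source (a liver metastasis), the disease status and the growth (of MTT cells, near confluence), so the MPC group rests on the sample titles and the stated cell type.

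Catecholamine synthesis starts from tyrosine. Tyrosine hydroxylase (Th) makes L-DOPA with the cofactor tetrahydrobiopterin, whose synthesis starts with Gch1, and Ddc removes the carboxyl group to give dopamine. The vesicular monoamine transporters Slc18a1 (VMAT1) and Slc18a2 (VMAT2) load dopamine into chromaffin granules, where Dbh turns it into noradrenaline with electrons from ascorbate that the membrane protein Cyb561 renews. Pnmt methylates noradrenaline to adrenaline in the cytosol, the noradrenaline transporter Slc6a2 takes released amine back up, and Maoa on the mitochondrial membrane oxidizes what is not stored. PHEO cells release these amines, and Slc6a2 is also the route by which the radiolabeled tracer MIBG enters them.

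Promoter sequence is shown for 4 steps of the pathway, so that the start sites of genes described next to each other can be read beside their signals. The RefSeq promoter table (GRCm38.p6) held entries for 6 of the 10 genes, among them Th, Dbh, Gch1 and Slc18a2. The 250 bases before each start site are printed 5′ to 3′ on the strand of the gene, and capitals mark, on either strand, the cAMP response element TGACGTCA or its core TGACG, the CCAAT box and the GC box GGGCGG.
Th, chr7:142899996-142900245, minus strand: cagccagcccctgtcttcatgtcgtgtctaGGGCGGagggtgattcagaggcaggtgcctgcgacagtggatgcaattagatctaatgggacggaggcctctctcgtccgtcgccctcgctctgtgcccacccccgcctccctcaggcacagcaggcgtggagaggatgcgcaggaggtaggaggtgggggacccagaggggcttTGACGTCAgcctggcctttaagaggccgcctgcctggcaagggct
Dbh, chr2:27165257-27165506, plus strand: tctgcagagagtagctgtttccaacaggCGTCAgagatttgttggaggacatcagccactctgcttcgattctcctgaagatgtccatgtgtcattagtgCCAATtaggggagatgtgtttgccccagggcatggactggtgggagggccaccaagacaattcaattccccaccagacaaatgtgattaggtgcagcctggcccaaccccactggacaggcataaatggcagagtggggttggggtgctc
Gch1, chr14:47189414-47189663, minus strand: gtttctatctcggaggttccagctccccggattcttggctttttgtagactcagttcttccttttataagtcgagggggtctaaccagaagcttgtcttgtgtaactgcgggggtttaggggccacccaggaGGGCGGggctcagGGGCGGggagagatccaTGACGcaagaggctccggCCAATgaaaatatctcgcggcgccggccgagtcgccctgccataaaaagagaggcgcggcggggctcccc
Slc18a2, chr19:59260628-59260877, plus strand: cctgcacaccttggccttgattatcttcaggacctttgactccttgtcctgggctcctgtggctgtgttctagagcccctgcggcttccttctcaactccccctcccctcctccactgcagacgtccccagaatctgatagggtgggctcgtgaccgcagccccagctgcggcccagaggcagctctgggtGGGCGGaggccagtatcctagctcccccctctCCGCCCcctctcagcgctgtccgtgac

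The full element TGACGTCA was found before Th alone of these 4 genes, from 45 to 38 bases before the start, and the core TGACG lies inside it on both strands. It occurs in the same window of 1.55% of the 32851 promoters in the table. The core alone stood before Gch1 and, on the opposite strand, before Dbh, and 17.8% of all promoters hold it. It also stood before Maoa, which has an entry that is not shown, and not before Ddc, whose entries are not shown either. The Gch1 core, at 88 to 84 bases before the start, was followed by a CCAAT box at 70 to 66, a motif that 33.8% of promoters hold. Of these motifs Slc18a2 had the GC box alone, which 32.7% of promoters hold. These matches describe letters in a window and were not related to the signals.

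The authors deposited log2 signals after RMA, a method that subtracts background, makes the arrays comparable by quantile normalization and summarizes the probes of a probe set. The median over all probe sets ranged from 7.73 to 7.76 for MTT and from 7.73 to 7.77 for MPC, Pearson's r between arrays was 0.996 to 0.998, and no 2 arrays held identical values. Chromaffin identity was checked on 10 markers, of which 8 had a probe set with 1 symbol, and all 8 lay above 7.16. That value is the 95th percentile of 1015 olfactory receptor genes, which stand here for genes that these cells should not use. The granin Chga read 12.03 in MTT and 12.11 in MPC cells. Of these 8 markers 5 passed the test between the lines described next, which 7.87% of all genes passed: the granin Scg2 (log2 difference 0.55) and the transcription factors Isl1 (0.31) and Gata3 (0.19) were higher in MTT cells, and the granin Chgb (-0.15) and the factor Insm1 (-0.30) were lower. The mean of the 8 was 11.25 to 11.28 in MTT and 11.17 to 11.20 in MPC cells, and its part in the results was not tested. Of 36 measured markers of adrenal cortex, liver, Schwann cells, endothelium, leukocytes and fibroblasts, none passed that test in limma and 2 had an unadjusted p under 0.05, against 20.5% of all genes, while 12 lay above 7.16, and the mean signal of each list stayed between 6.52 and 7.30 on every array. Of the 10 adrenal cortex markers 3 lay above 7.16 (Nr5a1, Fdx1 and Star) and the steroid-making Cyp and Hsd3b1 genes lay under it. Of 7 liver markers 1 lay above it (Apoa1), as did 2 of 4 Schwann cell, 2 of 5 endothelium, 1 of 5 leukocyte and 3 of 5 fibroblast markers. The brightest gene of each list was Nr5a1 (8.13 in both lines), Apoa1 (7.65 in MTT, 7.59 in MPC), Sox10 (8.12 and 8.17), Vwf (7.98 and 8.07), Cd68 (7.75 and 7.77) and Col1a1 (8.73 and 8.76).

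Along the pathway, the synthetic enzymes Th, Ddc and Dbh read nearly the same signal in both lines, and the genes that passed the test were 2 of the granule, Slc18a1 and Cyb561, and the reuptake transporter Slc6a2. With limma, a linear model with moderated variances fitted over all genes and adjusted by Benjamini-Hochberg, 1 of the 10 genes was higher in MTT cells, Slc18a1, where 3.93% of all genes were higher. Cyb561 and Slc6a2 were lower, where 3.94% of all genes were lower. The arrays of the lines did not overlap for these 3 genes and for Pnmt, that is 4 of 10, against 27.2% of all genes. The median absolute log2 difference was 0.066 over the 10 genes and 0.050 over all genes, and the median signed difference was -0.0072 and -0.0081. The largest difference, that of Slc18a1, was a 1.21-fold change. Since RNA came from whole cultures, a change in every cell and a change in the share of cells that express a gene cannot be told apart, and the level of 1 probe set cannot be set against that of another.

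**Figure D1:**
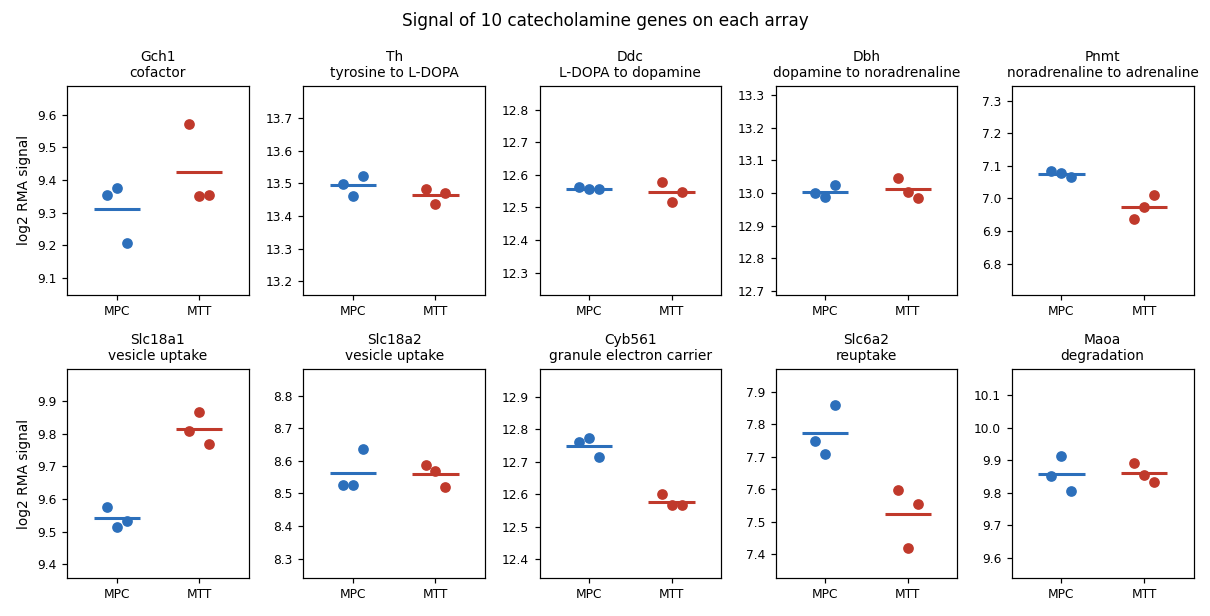
log2 RMA signal (vertical axis, each panel spanning the same range around its own center) of the 10 catecholamine genes on the 3 MPC arrays (blue) and the 3 MTT arrays (red). Points are arrays and bars the mean of 3. The lines separate for Slc18a1 (MTT mean 9.81, MPC mean 9.54), Cyb561, Slc6a2 and Pnmt and overlap for the other 6 genes.

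Th, the rate-limiting enzyme, read log2 signals of 13.48, 13.44 and 13.47 on the MTT arrays and 13.50, 13.46 and 13.52 on the MPC arrays. The values of the lines interleave, and the difference (MTT minus MPC) was -0.031 on the log2 scale with a 95% interval of -0.11 to 0.047, a signal ratio of 0.927-fold to 1.03-fold. Whether the probes of so bright a gene still follow the amount of RNA was not tested. The limma adjusted p was 0.685.

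Ddc, the next enzyme, read 12.58, 12.52 and 12.55 in MTT and 12.56, 12.56 and 12.56 in MPC cells. All 3 MPC arrays lay inside the MTT range, and the log2 difference was -0.011 (95% interval -0.086 to 0.064). Dbh, which makes noradrenaline in the granule, read 13.05, 13.00 and 12.99 in MTT and 13.00, 12.99 and 13.03 in MPC cells. Its log2 difference of 0.0080 (95% interval -0.069 to 0.085) was also within the spread of the arrays. The limma adjusted p was 0.902 for Ddc and 0.935 for Dbh. The 3 enzymes were also among the most evenly measured genes. The SD between arrays of a line was 0.028 for Th, 0.022 for Ddc and 0.026 for Dbh, against a median of 0.054 over all genes. That median includes dim genes, while each of these 3 was brighter than at least 98.4% of genes. Whether probes this bright still follow the amount of RNA was not tested for Ddc and Dbh either.

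Gch1, the entry enzyme of cofactor synthesis, was the least even of the 10 genes. It read 9.57, 9.35 and 9.35 in MTT cells and 9.35, 9.38 and 9.21 in MPC cells. MTT replicate 1 stood above all other arrays and MPC replicate 3 below them, while the remaining 4 arrays lay together. The log2 difference of 0.11 (95% interval -0.049 to 0.28, limma adjusted p = 0.420) therefore did not exceed the spread, and without MTT replicate 1 it was 0.040.

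Pnmt, which defines adrenaline-producing cells, read 6.94, 6.97 and 7.01 in MTT and 7.08, 7.08 and 7.07 in MPC cells. All MTT arrays lay below all MPC arrays, by a gap of 0.054. The log2 difference of -0.10 (95% interval -0.18 to -0.023) did not pass the test over all genes (limma adjusted p = 0.132, unadjusted p = 0.0176). In both lines the Pnmt signal was under the olfactory receptor mark of 7.16, higher than 93.8% of those receptors, so it is not shown to lie above background and the size of its change is not known. Pnmt minus Dbh within an array was lower on all MTT than on all MPC arrays (two-sided exact permutation p = 0.10, the smallest that 3 against 3 samples can give), with the same limit on its size.

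**Figure D2:**
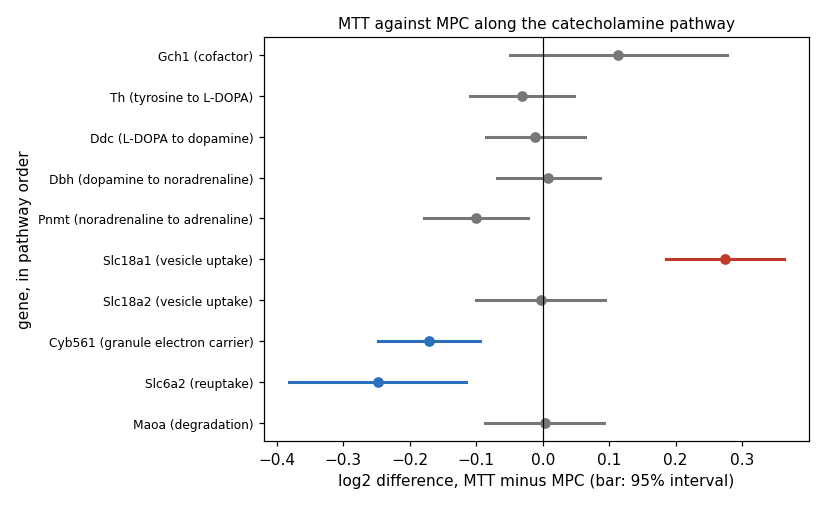
log2 difference between MTT and MPC cells (horizontal axis) of the 10 genes in pathway order (vertical axis). Points are differences of the means of 3 arrays and bars the 95% intervals of limma, with red for higher in MTT cells, blue for lower and gray for genes that did not pass. Slc18a1 is at 0.27, Cyb561 at -0.17 and Slc6a2 at -0.25.

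Of the vesicular transporters, Slc18a1 was higher in MTT cells. Slc18a1, the form typical of endocrine cells, read 9.81, 9.87 and 9.77 on the MTT arrays and 9.58, 9.51 and 9.53 on the MPC arrays. Every MTT array lay above every MPC array, with a gap of 0.19. Slc18a1 rose by 0.27 on the log2 scale, which is 1.21-fold (95% interval 1.14 to 1.29, limma adjusted p = 0.00424), and 97.1% of all genes differed by less. Slc18a1 passed the test under each of the 14 alternative settings, with adjusted p from 0.000245 to 0.0394.

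Slc18a2, the form typical of neurons and also used by chromaffin cells, read 8.59, 8.57 and 8.52 in MTT and 8.53, 8.53 and 8.64 in MPC cells. These values interleave, and the log2 difference was -0.0034 (95% interval -0.10 to 0.093). Its sign turned under both rescalings of the arrays (0.0034 with equal medians and 0.00041 with cyclic loess). The mean Slc18a2 signal of 8.56 was above 99.6% of the olfactory receptors and 53.3% of all genes. Col1a1, a fibroblast marker, read higher (8.74), and how far Slc18a2 lies above background was not tested. The log2 signal of Slc18a1 minus that of Slc18a2 on the same array was 1.26 ± 0.038 (SD, n = 3) for MTT and 0.98 ± 0.077 (SD, n = 3) for MPC cells. This contrast of 0.28 had a two-sided exact permutation p = 0.10, the smallest possible with 3 against 3. The Slc18a1 gap of 0.19 between the lines is wider than the whole range of the Slc18a2 arrays, 8.52 to 8.64. The lines therefore could not overlap in this contrast, and its p was fixed by the single-gene values. The contrast adds no separate evidence to the Slc18a1 call. It measures an unequal change of the 2 probe sets and not their relative amounts. Slc18a2 lies on chromosome 19, where the 337 genes above the median signal had a median log2 difference of -0.11 and 98 were lower and 4 higher by limma, and 293 of the 337 had a lower difference than Slc18a2.

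Cyb561 was lower in MTT cells. It read 12.60, 12.57 and 12.57 in MTT and 12.76, 12.77 and 12.71 in MPC cells, and the lines were separated by a gap of 0.11. Cyb561 fell by 0.17 on the log2 scale, to 0.888 of the MPC signal (95% interval 0.842 to 0.937, limma adjusted p = 0.0183). It was brighter than 98.8% of genes, and whether its probes still follow the amount of RNA was not tested. The adjusted p was 0.0798 without MTT replicate 2, 0.0658 without MTT replicate 3, 0.0641 without MPC replicate 1, 0.0745 without MPC replicate 2 and 0.0644 when all 34760 probe sets were tested, while the difference stayed between -0.19 and -0.16.

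Slc6a2 had the lowest MTT to MPC ratio of the 10 genes. The transporter read 7.60, 7.42 and 7.55 on the MTT arrays and 7.75, 7.71 and 7.86 on the MPC arrays. All MTT arrays lay below all MPC arrays, and its arrays scattered more than those of 81.1% of all genes. Slc6a2 fell by 0.25 on the log2 scale, to 0.842 of the MPC level (95% interval 0.767 to 0.923, limma adjusted p = 0.0380). That call is the weakest of the 3, since it did not pass when any 1 of the 6 arrays was left out (adjusted p 0.0542 to 0.109), without moderation of the variances (adjusted p = 0.172) or over all probe sets (adjusted p = 0.126). The signal was 7.65 on average, above 97.8% of the olfactory receptors but above only 41.2% of all genes. The brightest markers of other cell types, such as Sox10 (8.14) and Nr5a1 (8.13), read higher, except Apoa1 (7.62). How far Slc6a2 lies above background was not tested, so the size of its change is uncertain.

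Slc6a2 and Slc18a1 both lie on chromosome 8 and moved in opposite directions, so that Slc6a2 minus Slc18a1 within an array was -2.29 ± 0.13 (SD, n = 3) for MTT and -1.77 ± 0.083 (SD, n = 3) for MPC cells. The contrast was -0.52 on the log2 scale (two-sided exact permutation p = 0.10, the smallest possible). It ranged from -0.56 to -0.44 when 1 array was left out. Each gene alone already separated the lines, in opposite directions, so this p was fixed by the single-gene values. The contrast adds no separate evidence to them. Over the 555 genes of chromosome 8 above the median signal the median log2 difference was -0.022, with quartiles of -0.070 and 0.029. Ddc, Pnmt and Cyb561 share chromosome 11, where 858 such genes had a median of 0.027.

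Maoa, which oxidizes noradrenaline and serotonin that escape storage, read 9.89, 9.85 and 9.83 in MTT and 9.85, 9.91 and 9.81 in MPC cells. The arrays interleave, and the log2 difference of 0.0028 (95% interval -0.087 to 0.093, limma adjusted p = 0.983) was the smallest of the 10. For the 6 genes that did not pass and lay above the olfactory receptor mark, all but Pnmt, the 95% intervals of the signal ratio together ran from 0.927-fold to 1.21-fold.

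**Figure D3:**
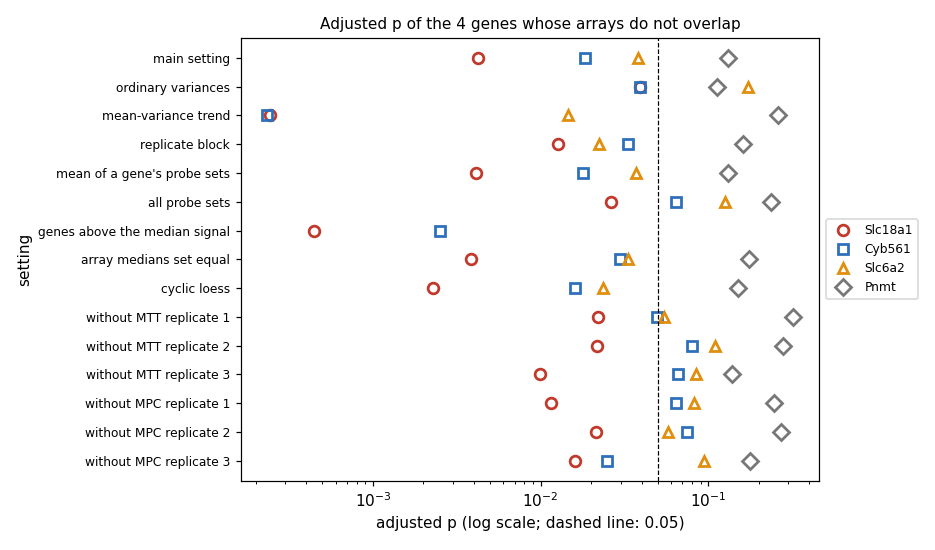
Benjamini-Hochberg adjusted p of limma (horizontal axis, log scale, dashed line at 0.05) for the 4 genes whose arrays do not overlap, under each setting (vertical axis). Slc18a1 stays left of the line at every setting, Cyb561 and Slc6a2 cross it at several, and Pnmt stays right of it, with no Pnmt or Slc6a2 point among genes above the median signal, where neither is included.

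Around these 10 genes, 9 lists of neighboring functions were examined, from cofactor supply to receptors. Of 120 genes listed, 97 had a probe set with 1 symbol, and 7 passed (7.87% of all genes did), 6 of them lower (3.94% of all genes) and 1 higher (3.93%). The share that passed lay near that of all genes, so this count says nothing particular of these lists. An unadjusted p under 0.05 by limma was reached by 30 of the 97, against 20.5% of all genes. Whether the lists differ from all genes was not tested. The median log2 difference of the 97 was -0.013, close to that of all genes. The values of the 7 genes follow as a description of the neighborhood of the pathway.

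Slc7a8, an exchanger of large neutral amino acids that also carries L-DOPA, differed most. It read 8.19, 8.28 and 8.37 in MTT and 9.23, 9.03 and 9.09 in MPC cells. The gap between the lines was wider than the spread within either, and Slc7a8 fell by 0.84 on the log2 scale (standard error 0.062, limma adjusted p = 0.000145). Slc7a5, a related carrier of tyrosine into cells, had a mean signal of 12.89 in MTT cells (SD 0.015, n = 3) and of 12.76 in MPC cells (SD 0.024), and limma's adjusted p was 0.0536. The other 6 measured genes of tyrosine and amino acid supply did not pass.

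Of 7 other monoamine and related transporters, 2 were lower in MTT cells, where 3.94% of all genes were. Slc6a4, the serotonin transporter and a relative of Slc6a2, read 7.61, 7.74 and 7.87 in MTT and 8.28, 8.25 and 8.30 in MPC cells. The MPC arrays lay close together and the MTT arrays did not, yet the lines did not overlap, and Slc6a4 fell by 0.54 on the log2 scale (standard error 0.063, limma adjusted p = 0.00176). Without moderation of the variances its adjusted p was 0.0529. In MTT cells the Slc6a4 mean of 7.74 lay under Sox10 (8.12) and Nr5a1 (8.13), markers of other cell types. In MPC cells its mean of 8.28 lay slightly above them (8.17 and 8.13). How far Slc6a4 lies above background was not tested, so the size of its fall is uncertain. The dopamine transporter Slc6a3 had a mean signal of 7.28 in MTT cells (SD 0.030, n = 3) and of 7.15 in MPC cells (SD 0.062), with a limma adjusted p of 0.0949. Both Slc6a3 means lay close to the olfactory receptor mark of 7.16, so the size of a change is not known.

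Slc18a3, the vesicular acetylcholine transporter of the same family as Slc18a1 and Slc18a2, read 8.47, 8.45 and 8.52 in MTT and 8.68, 8.86 and 8.89 in MPC cells. It fell by 0.33 on the log2 scale (limma adjusted p = 0.0124). Chat, which synthesizes acetylcholine, was the gene called among 12 of other amine synthesis (3.94% of all genes were called lower). It read 7.20, 7.24 and 7.31 in MTT and 7.63, 7.56 and 7.51 in MPC cells and fell by 0.32 (limma adjusted p = 0.00458). Its MTT signals lay close to the olfactory receptor mark of 7.16, so the size of its fall is uncertain. Slc18a3 and Chat both had all MTT arrays below all MPC arrays. In the RefSeq annotation Slc18a3 lies within the bounds of Chat on chromosome 14, so the 2 values come from 1 shared locus and were not taken as separate evidence. The Slc18a3 call did not pass without MTT replicate 1 (adjusted p = 0.0537) or 2 (adjusted p = 0.0550), over all probe sets (adjusted p = 0.0619) or without moderation (adjusted p = 0.109), and that of Chat did not pass without moderation (adjusted p = 0.0556).

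Aldh2 is the mitochondrial aldehyde dehydrogenase that takes over the aldehydes made by monoamine oxidase. It was the gene called among 11 of monoamine degradation (3.94% of all genes were called lower). It read 9.04, 9.02 and 8.96 in MTT and 9.36, 9.27 and 9.26 in MPC cells. All MTT arrays were lower, and Aldh2 fell by 0.29 on the log2 scale (standard error 0.041, limma adjusted p = 0.00467). All 14 alternatives kept this call. Maob, the other monoamine oxidase, had a mean signal of 5.91 in MTT cells (SD 0.064, n = 3) and of 5.87 in MPC cells (SD 0.046), under the olfactory receptor mark.

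Gchfr, the feedback regulator of Gch1, was the gene called among 7 of tetrahydrobiopterin synthesis and regeneration (3.94% of all genes were called lower). It read 8.25, 8.19 and 8.18 in MTT and 8.39, 8.52 and 8.37 in MPC cells. It fell by 0.22 on the log2 scale (limma adjusted p = 0.0284). With 1 array left out, the call was lost each time (adjusted p 0.0535 to 0.104) but for MPC replicate 3 (adjusted p = 0.0356), and it was lost without moderation (adjusted p = 0.133) or over all probe sets (adjusted p = 0.101). Pts and Spr, which follow Gch1 on the way to the cofactor, had log2 differences of -0.10 and -0.11 and did not pass.

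The gene that was higher, Prkar2b, encodes a regulatory subunit of protein kinase A, a kinase that phosphorylates Th. It read 11.54, 11.50 and 11.51 in MTT and 11.37, 11.38 and 11.27 in MPC cells, and rose by 0.18 on the log2 scale (limma adjusted p = 0.0282). The call did not pass when any 1 array was left out (adjusted p 0.0509 to 0.105), nor without moderation (adjusted p = 0.0908) or over all probe sets (adjusted p = 0.0924). The other 15 measured regulators of Th did not pass.

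No gene passed in the other 3 lists. Among 17 subunits of the V-ATPase, the proton pump whose gradient drives the vesicular transporters, 5 had an unadjusted p under 0.05 by limma. All 5 were lower in MTT cells, while the 20.5% of all genes with such a p covers both directions. The median log2 difference of the subunits was -0.048, and a shared direction was not tested. Atp6v1c1 came nearest, at -0.14 (limma adjusted p = 0.0587), and it passed when the variance was allowed to follow the signal (adjusted p = 0.00529) or when only the brighter genes, those over the median signal, were tested (adjusted p = 0.0122). Of 12 genes of ascorbate and copper supply, on which Dbh depends, 3 had an unadjusted p under 0.05. Of 7 measured adrenergic and dopamine receptors (15 listed) 1 had. Both counts lie near the 20.5% of all genes. Of the ascorbate and copper genes Gclc, which starts glutathione synthesis, came nearest at 0.11 (limma adjusted p = 0.0916), and it passed under the same changes (adjusted p of 0.00647 and 0.0206). Of the receptors Drd5 had the smallest p (limma adjusted p = 0.173), but it read 6.53 in MTT and 6.65 in MPC cells, under the olfactory receptor mark, so the size of a change is not known.

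**Figure D4:**
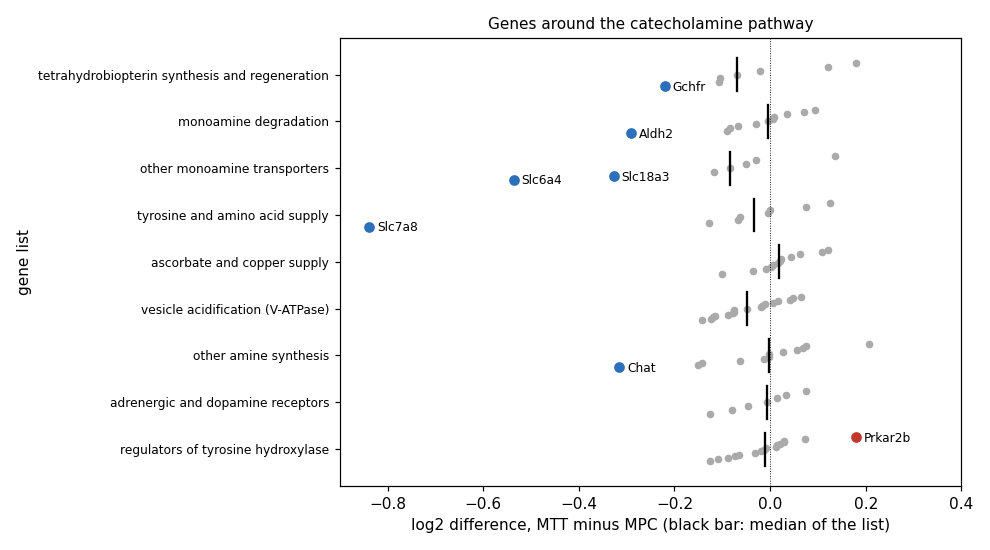
log2 difference between MTT and MPC cells (horizontal axis) of each measured gene in 9 lists around the catecholamine pathway (vertical axis). Points are genes, blue and named where lower and red and named where higher in MTT cells (limma, adjusted p under 0.05), gray otherwise, and black bars are list medians. Slc7a8 is farthest from 0, at -0.84.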

How the data were processed

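RNA of 3 MTT and 3 MPC samples was measured on 6 arrays. The authors deposited log2 values after RMA (Affymetrix Expression Console and RMA in the submitters' processing notes, Partek in the methods, with versions not given in the sources used here).

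Of 34760 probe sets, 21640 have 1 symbol in the platform's annotation, 1321 have several and 11799 are not named in it. For the 954 genes with several such probe sets the brightest was used. Chromosomes and locus order came from RefSeq (GRCm38.p6), because no build is named for the files. MTT and MPC samples, grouped by title, were compared with limma 3.58.1 (lmFit and eBayes, two-sided, Benjamini-Hochberg over 19937 genes, threshold 0.05) in R 4.3.3, and the fit was tested on simulated data. Figures used Python 3.11.15 and matplotlib 3.10.9. The 10 genes, the 9 lists and the tests were chosen with earlier results of these data known. Named are the 10 genes, every listed gene past the threshold and the smallest p of each list, markers past the threshold or brightest in their list, with a few neighbors (Slc7a5, Slc6a3, Maob, Pts, Spr) and 3 markers (Chga, Fdx1, Star) added after their values were seen. The number of arrays limits the precision. Alternatives were ordinary variances, a variance trend, a replicate block, means of probe sets, all probe sets, a filter on dim genes, 2 rescalings and leaving out each array.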

Additional observations from a re-analysis of the deposited data

How the results depend on the processing

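Slc18a1, Slc7a8 and Aldh2 kept direction and call under all 14 alternatives, and no alternative made a call of the 7 catecholamine genes that did not pass. The calls of Slc6a2 and Cyb561 depended on single arrays, as given above. Of the 10 genes, 3 passed, and 1 did over all probe sets and 1 or 2 without 1 array (1 in the fits that lacked MTT 2, MTT 3, MPC 1 or MPC 2). Of all 19937 genes, 1569 passed, 824 with ordinary variances, 2416 with a mean-variance trend, 942 over all probe sets, where 34760 features were tested, 2207 of the 9968 above the median signal, 1767 after cyclic loess and 891 to 1276 without 1 array (924 without MTT replicate 1, 891 without 2 and 994 without 3, and 1004 without MPC replicate 2). Of the 97 neighboring genes, 7 passed, 20 with the trend, 4 over all probe sets, 19 of the 60 above the median signal, 11 after cyclic loess and 4 to 6 without 1 array (4 without MTT replicate 1 or 2). The cause was not tested. The sign of 4 differences near 0 turned when 1 array was left out. These were Ddc (-0.027 to 0.0041), Dbh (-0.0094 to 0.021), Slc18a2 (-0.022 to 0.033) and Maoa (-0.023 to 0.031), and that of Slc18a2 also turned after setting array medians equal (0.0034) and after cyclic loess (0.00041). Slc18a1 minus Slc18a2 ranged from 0.24 to 0.31 without 1 array, and Pnmt minus Dbh kept its sign.

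Samples of the lines share only replicate numbers. Deviations of same-numbered samples from their line's mean correlated at 0.12, 0.074 and 0.25, and every sample correlated best with its own number, which is a hint from the data and not from the design. With the replicate number as a block, 1501 genes passed, with 3 of the 10 genes and 8 of the 97 neighboring genes. The within-array contrasts kept their values at an exact permutation p = 0.25, the smallest that 3 pairs allow. For the contrasts with Slc18a1 this p was fixed by the single-gene values.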
